A study of Rattus norvegicus with 4 samples.

Results

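The translation initiation factors are the genes whose symbol on the array begins with Eif followed by a digit from 1 to 6, with the kinases Eif2ak2 and Eif2ak3 left out. The rule used names and no measured value. It took 78 of the 45598 different non-control probes and 51 of the 27103 gene names on the array. Of these genes, 32 had 1 probe and 19 had several.

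Expression was measured in NR8383, a rat macrophage line derived from lung lavage. The labels describe cells after 20 passages in medium with 15% serum, kept submerged and otherwise untreated. All 4 samples form 1 group, the submerged control, and are called biological replicates. The labels give 4 h of incubation in one place and 48 h after seeding in another, so no duration is attached to a value here. No other condition was analysed here, and each comparison below is between replicates or between probes. Because RNA came from whole cultures, fewer cells expressing a gene and less RNA per cell cannot be told apart.

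Initiation factors bring the ribosome to the start codon of an mRNA. eIF2 delivers the initiator tRNA, eIF3 and the small factors eIF1 and eIF1A prepare the small ribosomal subunit for scanning, and the eIF4 proteins bind the cap and unwind the leader. eIF5 and eIF5B then allow hydrolysis of GTP and joining of the large subunit. Stress lowers initiation through kinases that phosphorylate eIF2 and so block its exchange factor eIF2B, and growth signals act through proteins that bind the cap-binding protein eIF4E. In macrophages both routes tune cytokine synthesis during infection and stress.

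The level of a probe is the log2 processed signal minus the 75th percentile of its array, so that 0 is the 75th percentile. This percentile was a signal of 1317, 1489, 1179 and 958 on replicates 1 to 4. All arrays lay on 1 slide with 1 scan time, and no spot, control spots included, was saturated. Between 51.7% and 56.0% of non-control spots were well above background. Of the macrophage markers examined, 8 of 11 were detected on all 4 arrays, with Adgre1 detected on 1 array and Cd163 and Marco on none. None of 5 epithelial markers was detected on all 4 arrays. Of other cell types, 2 of 5 fibroblast markers (Col1a2 and Dcn), 3 of 5 endothelial markers (Pecam1, Cdh5 and Vwf), 2 of 5 T cell markers (Cd3d and Lck) and 1 of 5 germ cell markers (Prm1) were detected on all 4. Their mean levels lay between -4.90 for Prm1 and 1.23 for Vwf, and their part in the results below was not tested. Levels of different probes depend on their hybridisation and are not ranked against each other.

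Nearly every initiation factor gene was measured in these cells. A gene counted as detected when at least 1 of its probes was well above background on all 4 arrays, and 49 of the 51 genes (96.1%) met this. The same share was 44.2% over all gene names on the array and 55.6% over the names that are protein-coding symbols in RefSeq. Of the 78 probes, 74 (94.9%) had a signal well above background on every array, against 42.5% of all probes. The other 4 had it on no array. The genes without detection were Eif2s3y and Eif5a2, each a paralogue of a gene that was detected.

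**Figure D1:**
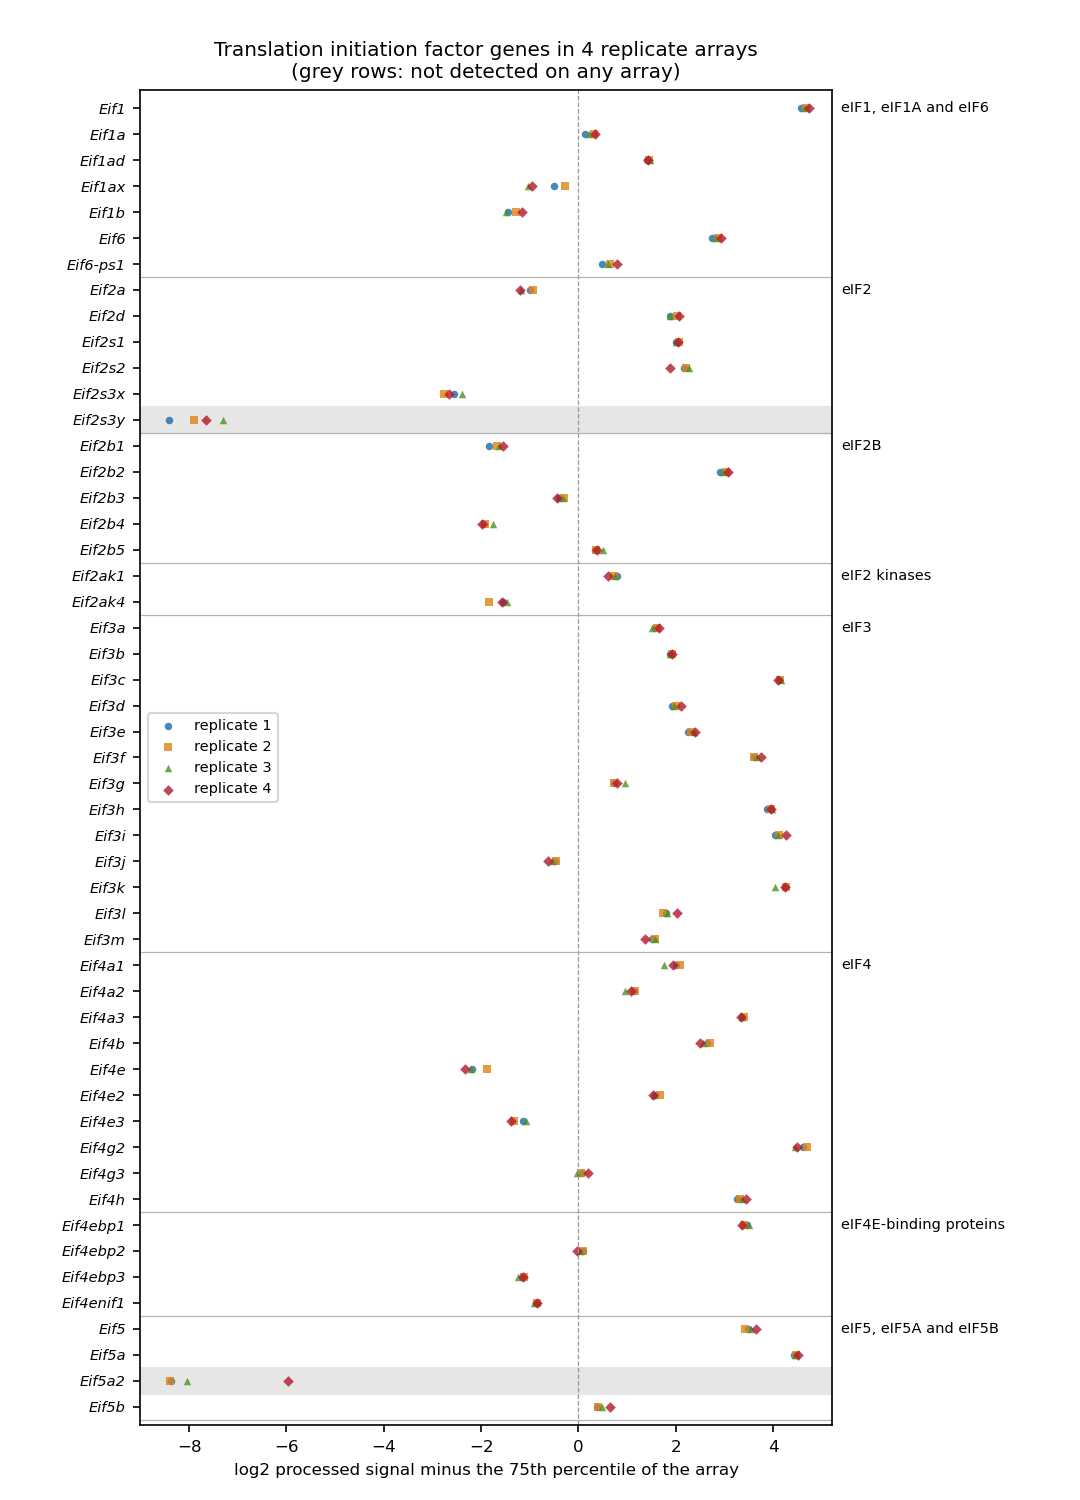
Level of each initiation factor gene (rows, by group) on 4 arrays, as log2 processed signal minus the 75th percentile of the array. Each symbol is 1 replicate, taken from the brightest detected probe of the gene. The grey rows are Eif2s3y and Eif5a2, which were detected on no array, and the 49 other genes lie to the right of them with 4 nearly overlapping symbols.

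The small factors and eIF6 comprised 7 genes with 11 probes, and all were detected. Eif1 encodes the factor that guards start codon selection. Its brightest probe, which the files place at chr10:89257177-89257236 on the plus strand of rat genome build rn4, gave 4.57, 4.67, 4.65 and 4.74 on replicates 1 to 4. Its paralogue Eif1b, at chr8:125500937-125501263, gave -1.45, -1.29, -1.49 and -1.16. Both were highest on replicate 4.

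eIF1A is encoded by Eif1a on chromosome 18 and Eif1ax on the X chromosome, as named on the array. The brighter of the Eif1a probes gave 0.14, 0.31, 0.21 and 0.34. The Eif1ax probe, at chrX:56700752-56700811 on the minus strand, gave -0.50, -0.28, -1.04 and -0.96, a mean of -0.70 ± 0.37 (SD, n = 4). Replicates 1 and 2 lay above replicates 3 and 4 for Eif1ax, with 1.70-fold between the highest and the lowest array. The dimmer Eif1a probe gave -1.55, -1.47, -1.64 and -1.62, with the same split at a smaller size, and the brighter one did not have it. Eif1ad, which encodes a protein with an eIF1A-like domain, gave 1.40, 1.44, 1.47 and 1.42 with its brighter probe, an SD of 0.029.

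Eif6 encodes the factor that keeps the large ribosomal subunit from joining early, and Eif6-ps1 is annotated as its pseudogene. The Eif6 probe starting at base 1072 of the transcript gave 2.71, 2.84, 2.82 and 2.94. The probe starting at 1170 gave 2.75, 2.87, 2.83 and 2.93. Eif6-ps1 gave 0.49, 0.65, 0.60 and 0.79. All these probes were lowest on replicate 1 and highest on replicate 4. The files place the Eif6 probe at 1072 at chr14:87464835-87464896, beside the Eif6-ps1 probe at chr14:87465224-87465283, and give no position for the other Eif6 probe. Which copy supplied the measured RNA was not tested.

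Of the eIF2 group, 5 of 6 genes were detected, including all 3 subunits of the complex. Eif2s1, the alpha subunit that is phosphorylated under stress, gave 2.01, 2.07, 2.00 and 2.04. Its SD of 0.030 was among the 5 smallest of the detected genes. The gamma subunit has an X-linked and a Y-linked gene. Eif2s3x, at chrX:81552727-81552786, gave -2.56, -2.75, -2.39 and -2.66 (SD 0.15). Eif2s3y had levels of -8.42, -7.91, -7.31 and -7.65, from signals of 3.84, 6.21, 7.43 and 4.79. These signals were below the dimmest spot called well above background on the same array, which lay between 16.7 and 20.3. The Eif2s3y probe passed the software's weaker criterion, a signal positive and significant, on 2 arrays.

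Eif2a and Eif2d encode initiator tRNA carriers that work apart from the trimeric eIF2. Eif2a had a mean level of -1.09 ± 0.13 (SD, n = 4), lower on replicates 3 and 4 than on replicates 1 and 2. Eif2d gave 1.88, 2.02, 1.88 and 2.06 with the probe at 1851. A second Eif2d probe, at 4050 in another transcript model, gave -4.79, -5.70, -4.92 and -5.16. It had an SD of 0.40, the largest of the 74 detected probes, and was lowest on replicate 2. This probe was dim, with signals of 47.6, 28.7, 38.9 and 26.9. The SD that limma fitted at its signal was 0.28, and limma's test of variance gave an unadjusted p of 0.21.

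Eif2s2, the beta subunit, had a pair of probes that were not alike across the arrays. The probe starting at base 239 is printed on 10 spots of each array, at chr3:145361004-145361457 on the minus strand, a placement of 454 bases for a 60-base probe. It gave 2.17, 2.21, 2.28 and 1.88, with replicate 4 lowest by itself. Its SD of 0.18 was 8.45 times the mean standard error between its spots within an array. That standard error leaves out differences between arrays. In limma's test of variance this probe had an unadjusted p of 0.084, and of 0.89 after Benjamini-Hochberg adjustment. The probe starting at 832, on 1 spot at chr3:145347612-145347671, gave -1.68, -1.51, -1.36 and -1.43, with replicate 1 lowest. On replicate 4 the deviation from each probe's own mean was -0.26 for the first and 0.07 for the second. The sequences, shown because the results of the gene depend on which of them is read, are these:
Eif2s2 probe at 239: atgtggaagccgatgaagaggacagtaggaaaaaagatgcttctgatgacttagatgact
Eif2s2 probe at 832: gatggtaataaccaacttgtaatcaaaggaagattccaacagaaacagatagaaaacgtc

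All 5 subunits of eIF2B, the exchange factor that reloads eIF2 with GTP, were detected. The alpha subunit Eif2b1 gave -1.84, -1.68, -1.62 and -1.54, and the beta subunit Eif2b2 gave 2.91, 3.03, 2.98 and 3.07. The gamma subunit Eif2b3 gave -0.39, -0.30, -0.31 and -0.45. The delta subunit Eif2b4 gave -1.94, -1.92, -1.75 and -1.99, and the catalytic epsilon subunit Eif2b5 gave 0.33, 0.37, 0.51 and 0.37. The SD of these subunits lay between 0.068 and 0.12, and replicate 1 lay below the gene's mean for all 5, by 0.030 to 0.17. The mean deviation on replicate 1 was -0.078 for these probes, -0.017 for all factor probes and -0.0093 for all detected probes. The difference was not tested.

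Of the eIF2 kinases that the rule kept, Eif2ak1, the haem-regulated kinase, gave 0.79, 0.74, 0.74 and 0.60. Eif2ak4, which senses uncharged tRNA, gave -1.56, -1.84, -1.47 and -1.56, an SD of 0.16 with replicate 2 lowest. The kinases left out by the rule were detected as well. Eif2ak2, activated by double-stranded RNA, had a mean level of -1.85 ± 0.045 (SD, n = 4), and Eif2ak3, the kinase of the endoplasmic reticulum, had -1.38 ± 0.071. mRNA for all 4 kinases of eIF2 was therefore measured on every array, for Eif2ak3 by 1 of its 2 probes.

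eIF3, the largest initiation factor, is a scaffold of subunits named a to m. All 13 subunit genes and all 19 of their probes were detected. The brightest probes had SDs between 0.0165 and 0.12, with a median of 0.073. Eif3b, a core subunit, gave 1.89, 1.91, 1.89 and 1.92, the smallest SD of all detected members at 0.0165. Eif3c, also of the core, gave 4.12, 4.13, 4.16 and 4.09 (SD 0.028). Eif3a, the subunit around which the complex is built, gave 1.57, 1.62, 1.52 and 1.65.

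Several eIF3 subunits were lowest on replicate 1 and highest on replicate 4. Eif3d, which can itself bind the cap, gave 1.92, 2.01, 1.96 and 2.10, and Eif3f gave 3.61, 3.61, 3.67 and 3.74. Eif3l gave 1.79, 1.73, 1.83 and 2.01, highest on replicate 4 and lowest on replicate 2. Eif3m, in contrast, gave 1.52, 1.56, 1.58 and 1.37, lowest on replicate 4. Of the 19 probes, 9 were highest on replicate 4 and 8 lowest on replicate 1, against 34% and 23.8% of all detected probes. With normexp background correction 7 were highest on replicate 4 and 7 lowest on replicate 1, against 49% and 22.9% of all detected probes. The pattern thus depended on the processing and was not tested.

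Some eIF3 probes share a target or have a doubtful position. The probes of Eif3k at 409 and 421 have 48 bases in common. They gave 4.24, 4.27, 4.03 and 4.24, and 3.96, 4.02, 3.93 and 3.88. The first is on 1 spot and the second on 10 spots of each array. Both were highest on replicate 2. The lowest array was replicate 3 for the first and replicate 4 for the second, although most of their sequence is the same. No other member probe shared a run of 20 or more bases with any other probe of the array. The files place the Eif3i probes far apart on chromosome 2, at chr2:229769086-229769145 and chr2:145735618-145735677, although both are assigned to 1 transcript. These probes gave 3.90, 4.03, 4.04 and 4.22, and 4.04, 4.11, 4.10 and 4.25, both lowest on replicate 1 and highest on replicate 4. The Eif3i probe at 856, on 10 spots, had an SD 10.2 times its standard error between spots. In limma's test of variance it had an unadjusted p of 0.23 and an adjusted p of 0.996.

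Eif3e and Eif3h each had a probe on 10 spots and a probe on 1 spot. For Eif3e these gave 2.25, 2.32, 2.38 and 2.39, and -0.91, -0.68, -0.47 and -0.53, both lowest on replicate 1. For Eif3h they gave 3.88, 3.96, 3.97 and 3.96, and -1.30, -1.32, -1.24 and -1.17. The remaining subunits Eif3g and Eif3j were also detected, with mean levels of 0.81 and -0.53.

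All 10 eIF4 genes were detected, with 18 of their 19 probes. Of these 18 probes, 13 were highest on replicate 2, against 21.9% of all detected probes. Their mean deviation on that array was 0.084. The probes are not independent, since several read the same gene. With quantile normalisation 11 of the 18 were highest on replicate 2, against 23.3% of all detected probes. With normexp background correction 12 were, against 14.8% of all. With the Agilent spike-in RNAs as scale 14 were, against 48.3% of all. This pattern was not tested, and nothing particular to eIF4 was drawn from it.

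Among the helicases of the eIF4A family, Eif4a1 gave 1.99, 2.08, 1.76 and 1.95 with its brighter probe, and Eif4a2 gave 1.13, 1.15, 0.95 and 1.07. Both were highest on replicate 2 and lowest on replicate 3. Eif4a3, the helicase of the exon junction complex, gave 3.36, 3.40, 3.35 and 3.35, an SD of 0.024 over 10 spots per array. The helicase cofactors Eif4b and Eif4h gave 2.64, 2.69, 2.56 and 2.50, and 3.26, 3.33, 3.35 and 3.44.

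Eif4e encodes the cap-binding protein, and its probes at 2085 and 607 had the same pattern. The first gave -2.19, -1.88, -2.21 and -2.33 (SD 0.19), and the second gave -2.66, -2.35, -2.67 and -2.82. Replicate 2 was the highest for both, by 0.27 and 0.28 above the mean. A further probe at 3596, from another transcript model, gave -4.48, -4.50, -4.31 and -4.39, with replicate 2 lowest. The probes lie along chr2:236102952-236105887. The cap-binding paralogues Eif4e2 and Eif4e3 gave 1.57, 1.68, 1.56 and 1.53, and -1.13, -1.32, -1.07 and -1.38. Replicate 2 was highest for Eif4e2 and was not for Eif4e3.

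Eif4g2 encodes a relative of the eIF4G scaffold that lacks the eIF4E-binding part. It had 5 probes, of which 4 were detected and all 4 were highest on replicate 2. The brightest, at chr1:168830394-168830453, gave 4.62, 4.69, 4.44 and 4.50. The probe at 2359 gave -0.30, -0.16, -0.29 and -0.32. The files place it at chr1:168829080-168829091, a placement of 12 bases for a 60-base probe. The probe at 562, drawn from another accession and placed at chr1:168833100-168833159, was detected on no array, with signals of 3.98, 4.68, 4.83 and 5.13. Aligned over 36 bases, these last probes differ at 3 positions and match at 33. The substitutions are A10G, C12T and C22A, counted from the 5′ end of the probe at 2359 with its base first. The sequences are shown because probes under 1 gene name, placed apart but alike over the aligned bases, differed in detection. Capitals stand at the positions that differ:
Eif4g2 probe at 2359: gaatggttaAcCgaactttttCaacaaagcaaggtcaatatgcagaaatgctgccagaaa
Eif4g2 probe at 562: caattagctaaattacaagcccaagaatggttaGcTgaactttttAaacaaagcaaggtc
Outside the aligned bases the probes hold different sequence, so the differences in capitals are not the only ones between them. The other scaffold gene named by the rule, Eif4g3, gave 0.08, 0.04, -0.04 and 0.20.

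The 4 genes of eIF4E-binding proteins were all detected and varied little, with SDs between 0.031 and 0.065. Eif4ebp1, the repressor released by mTOR signalling, gave 3.47, 3.41, 3.51 and 3.37. Its paralogues Eif4ebp2 and Eif4ebp3 gave 0.10, 0.10, 0.03 and -0.04, and -1.15, -1.11, -1.23 and -1.14. Eif4enif1, which carries eIF4E between cytoplasm and nucleus, gave -0.85, -0.86, -0.91 and -0.85.

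The last group holds eIF5, eIF5B and the eIF5A proteins, which carry the hypusine modification and act on stalled ribosomes. Eif5a, at chr10:56760789-56760848, gave 4.42, 4.47, 4.46 and 4.50 (SD 0.031). Eif5b, the GTPase of subunit joining, gave 0.38, 0.40, 0.49 and 0.65. The paralogue Eif5a2 was not detected by either of its probes. The probe at 4482 had signals of 3.71, 4.24, 4.38 and 4.51. The probe at 290, at chr2:116144822-116144881, had signals of 3.99, 4.42, 4.51 and 15.4, so that replicate 4 stood apart from the others. That value was still below the dimmest spot called well above background on that array, 20.3. It passed the software's weaker criterion, a signal positive and significant, on 1 array. The sequence of this probe is shown because the lack of detection of the gene near its 5′ end depends on it:
Eif5a2 probe at 290: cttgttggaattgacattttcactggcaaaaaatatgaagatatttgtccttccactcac

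Eif5 encodes the factor that triggers GTP hydrolysis by eIF2, and 5 probes read it along chr6:136314867-136318429 on the plus strand. The probe at 1042 gave -1.19, -1.29, -1.29 and -1.62, and the probe at 1397 gave -1.12, -1.21, -1.23 and -1.67. Both were lowest on replicate 4, by 0.28 and 0.36 below their own means. The probe at 1457 gave 0.17, 0.23, 0.13 and 0.13. The probe at 2538 gave 1.73, 1.72, 1.84 and 1.73, and the probe at 3287 gave 3.48, 3.42, 3.55 and 3.64. Replicate 4 was therefore lowest with the pair of probes nearest the 5′ end and highest with the probe nearest the 3′ end. It was also lowest with the probe at 1457, but by little (0.128 against 0.132 on replicate 3). In limma's test of variance the probes at 1042 and 1397 had unadjusted p-values of 0.15 and 0.060, which after Benjamini-Hochberg adjustment were 0.99 and 0.81.

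The probes at 1397 and 1457 lie end to end in the transcript. The files place the first at chr6:136315728-136316538, which spans 811 bases, and the second at chr6:136316539-136316598, which spans 60. Replicate 4 deviated by -0.36 in the first and -0.04 in the second. The 3 sequences nearest the 5′ end are shown because the size of the deviation on replicate 4 changes between the adjacent probes at 1397 and 1457. Capitals mark a final TAA, a stop codon in the reading frame that is open over the rest of that probe:
Eif5 probe at 1042: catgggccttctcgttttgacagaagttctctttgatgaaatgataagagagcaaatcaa
Eif5 probe at 1397: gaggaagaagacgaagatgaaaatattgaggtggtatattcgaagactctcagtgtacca
Eif5 probe at 1457: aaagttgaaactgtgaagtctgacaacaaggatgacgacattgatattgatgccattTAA
The GC content of these probes was 38.3%, 40.0% and 35.0%.

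**Figure D2:**
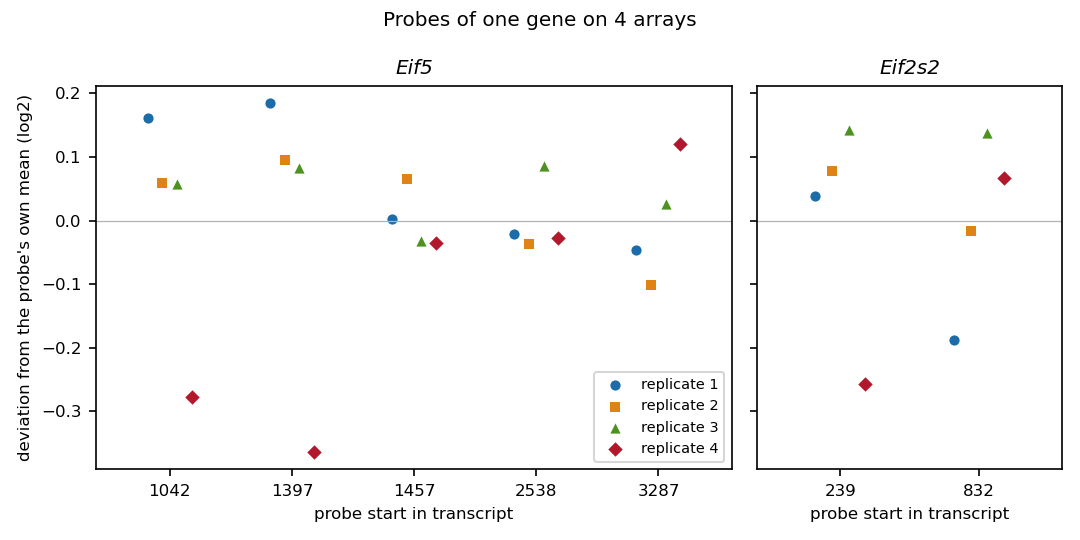
Deviation of each array from the probe's own mean (log2) for the 5 probes of Eif5 and the 2 of Eif2s2, set out by where the probe starts in the transcript. Symbols are replicates. Replicate 4 lies at -0.28 and -0.36 for the first Eif5 probes, at 0.12 for the last, and at -0.26 and 0.07 for the Eif2s2 probes.

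The same difference was taken over the array for probes of 1 transcript that start at least 500 bases apart, as the deviation of the upstream probe minus that of the downstream probe. In the initiation factors the median on replicate 4 was -0.036 over 22 pairs, below 0 in 14 of them (63.6%). Over all genes the median on replicate 4 was 0.047 over 1681 pairs, below 0 in 38.4%. Pairs of a gene share probes, and Eif5, whose pattern prompted the comparison, gave 7 of the 22. Without Eif5, a choice made after seeing the data, the median of the other 15 pairs was 0.015, with 7 below 0, so the sign for the factors rests on that gene. The low upstream values of Eif5 and Eif2s2 on replicate 4 were thus opposite in sign to the median over all genes. The cause was not tested.

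Most initiation factors had small SDs between replicates. The SD of the 74 detected probes ranged from 0.0165 to 0.40 with a median of 0.090, against 0.13 for all 19400 probes detected on all 4 arrays. The SD was under 0.1 for 44 of the 74 probes (59.5%), against 36.1% of all detected probes. The SD also falls with signal. The median SD that limma fitted at the signal of each probe was 0.098 for the member probes and 0.13 for all detected probes, near the medians measured. The SD was under this fitted value for 48 of the 74 member probes (64.9%) and for 55.7% of all. In both sets probes on more spots had a smaller median SD. For probes on 1 spot the median was 0.10 in 53 member probes and 0.13 in all. On 10 spots it was 0.063 in 18 member probes and 0.096 in all. The median SD of these 18 was 2.88 times the standard error between spots of an array, with a range of 1.65 to 10.2. The difference between the sets was not tested.

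The 5 detected genes of largest SD, by their brightest probe, were Eif1ax, Eif4e, Eif2s2, Eif2ak4 and Eif2s3x, with SDs of 0.37, 0.19, 0.18, 0.16 and 0.15. The 5 of smallest SD were Eif3b, Eif4a3, Eif3c, Eif1ad and Eif2s1, with SDs of 0.0165, 0.024, 0.028, 0.029 and 0.030.

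**Figure D3:**
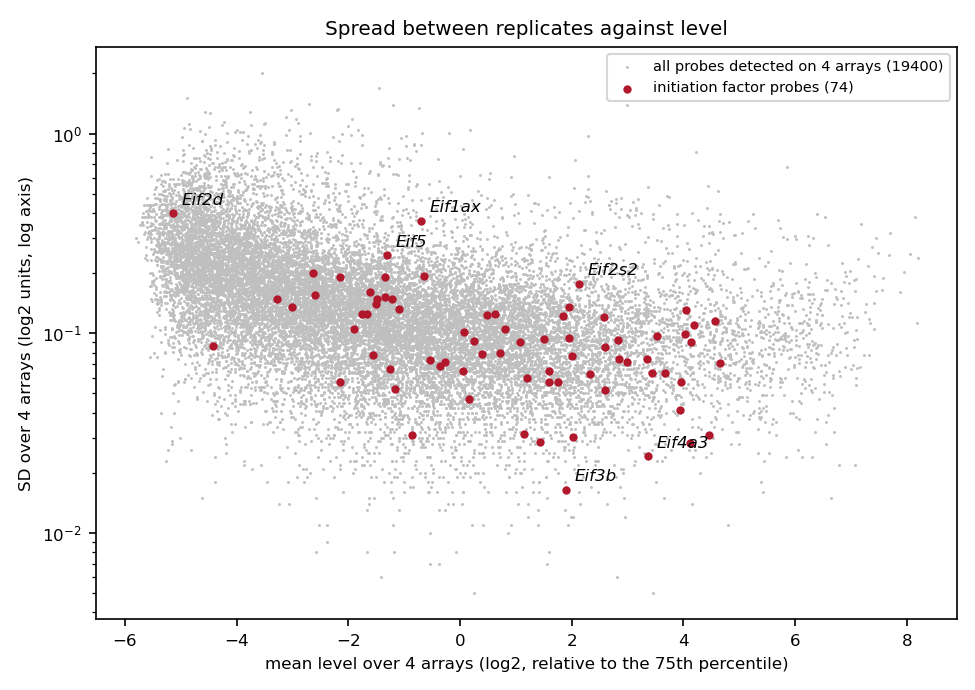
SD over 4 arrays (log2 units, log axis) against mean level (log2, relative to the 75th percentile) for all 19400 probes detected on all arrays (grey) and the 74 initiation factor probes (red). The red points range from 0.0165 (Eif3b) to 0.40 (a dim probe of Eif2d), and Eif1ax, at 0.37, lies high for its level.

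Whether a probe varied more between the arrays than other probes of its signal was tested with limma. The test sets the variance of the probe against the spread fitted over all detected probes, with Benjamini-Hochberg adjustment over all of them. No initiation factor probe passed an adjusted p of 0.05, and 1 of the 74 (1.35%) had an unadjusted p below 0.05. Over all detected probes 33 (0.17%) passed and 6.5% had an unadjusted p below 0.05. The probe was that of Eif1ax, with an unadjusted p of 0.0066 and an adjusted p of 0.31 by limma.

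The mean deviation of the factors was -0.017, 0.025, 0.002 and -0.009 on replicates 1 to 4, against -0.009, -0.013, -0.016 and 0.038 for all detected probes. Replicate 1 was the highest array for 6 of the 74 probes and the lowest for 23. Replicate 2 was the highest for 25 and the lowest for 10, replicate 3 for 18 and 16, and replicate 4 for 25 and 25. Over all detected probes the shares highest on replicates 1 to 4 were 19.6%, 21.9%, 24.6% and 34%, against 8.11%, 33.8%, 24.3% and 33.8% of the factor probes. The shares lowest were 23.8%, 23.4%, 26.7% and 26.1%, against 31.1%, 13.5%, 21.6% and 33.8%. The differences between these shares were not tested.

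These counts rest on the scale. The Agilent spike-in RNAs lay above the 75th percentile by 1.86 and 1.87 on replicates 1 and 2 and by 2.46 and 2.85 on replicates 3 and 4. With the spike-ins as scale, all 74 probes were lowest on replicate 4, as were 89.6% of all detected probes. The cause of this shift of the whole array was not tested.

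**Figure D4:**
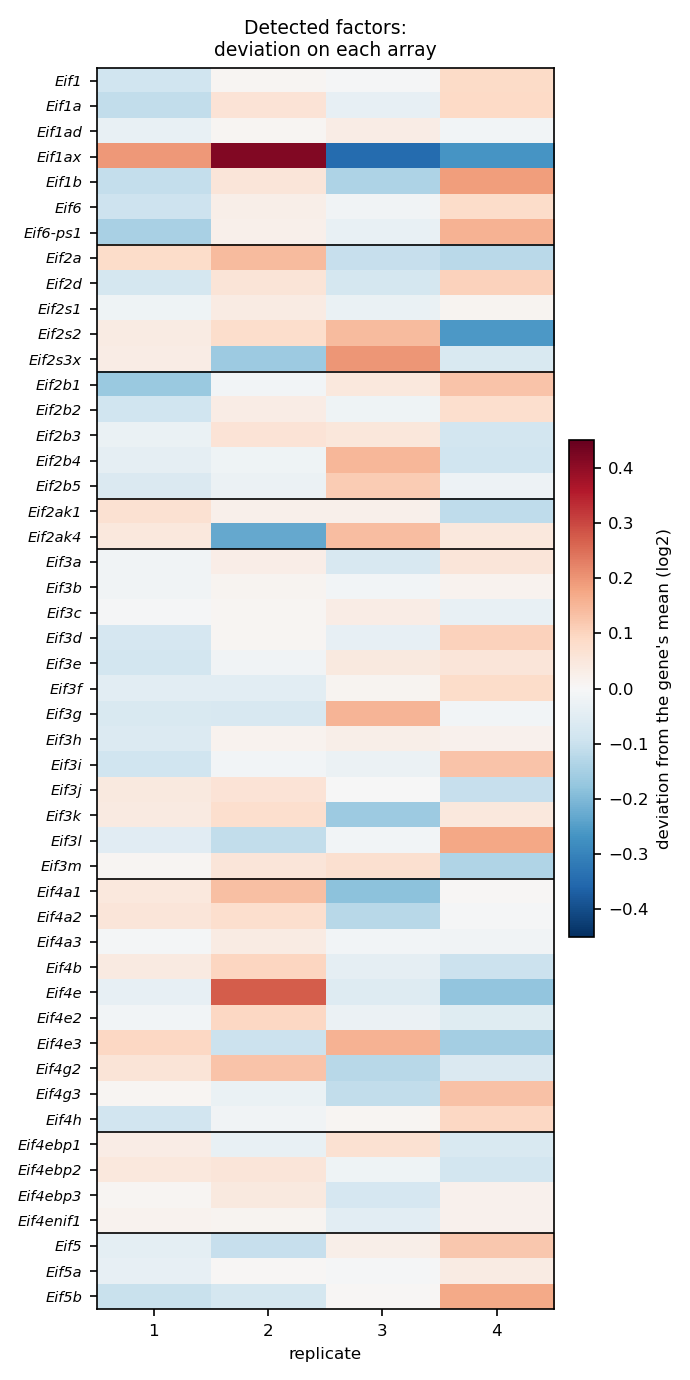
Deviation of each array from the gene's mean (log2, colour) for the 49 detected initiation factor genes, with lines between the groups of factors. Eif1ax is positive on replicates 1 and 2 and negative on replicates 3 and 4, Eif4e reaches 0.27 on replicate 2, and Eif2s2 falls to -0.26 on replicate 4.

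Probes of the same gene were then set against each other. In 18 member genes 36 pairs of detected probes could be compared, and 15 pairs (41.7%) were highest on the same array, against 42.5% of 4548 pairs over all genes. The largest difference in deviation within a pair had a median of 0.14, against 0.18 over all genes, and reached 0.61.

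Other genes of translation control and elongation were detected as widely. Of 41 such genes listed, 40 were on the array under a matching name, and all 40 were detected on all 4 arrays by at least 1 probe. The share was 44.2% over all gene names and 55.6% over protein-coding symbols in RefSeq. Tsc1 was detected by 1 of 3 probes and Eif2ak3 by 1 of 2. The list included Atf4 and Ddit3, which act when eIF2 is phosphorylated, and Mtor and Rptor, which act on the eIF4E-binding proteins. It also held the elongation factors Eef1a1 and Eef2. The SDs of the 40 genes ranged from 0.020 to 0.26 with a median of 0.089. By limma none passed an adjusted p of 0.05, against 0.17% of all detected probes. An unadjusted p below 0.05 by limma was found for 1 of the 40, against 6.5% of all detected probes. That gene was Pdcd4, a repressor of the eIF4A helicase, which gave -0.82, -1.20, -1.08 and -1.45 (unadjusted p of 0.042, adjusted p of 0.73).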

How the data were processed

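RNA of 4 samples was labelled with a single dye and hybridised to Agilent rat arrays, per the labels' protocols. The deposited values used were spot intensity on a linear scale, background-corrected and not normalised between arrays by Agilent Feature Extraction 11.0.1.1, per the file headers. Positions are the files' own (rn4); exon and UTR annotation was not used here. The log2 processed signal minus the 75th percentile over non-control spots was computed. Spots marked non-uniform or population outliers (402 to 615 per array) were left out, and replicate spots were then averaged. Detection of a probe on an array required that over 0.5 of its spots be well above background. A gene takes its brightest detected probe. The variance test used limma 3.58.1 with R 4.3.3 over 19400 probes, after a check on simulated data. The raised spreads in that check were, relative to the fitted one, above that of any factor probe. The check therefore does not cover spreads of the size seen here. An F test set each probe's own variance against the variance that limma fitted, robustly and with a trend on signal (adjusted p of 0.05). Probes not well above background have only a bound.

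Named are all members, with values on every array for those undetected, standing apart on 1 array, with the 5 largest or smallest SDs, or in paralogue pairs. Single probes of Eif5, Eif2s2, Eif4g2, Eif3i, Eif3k and Eif2d were singled out after their values were seen. Members and lists were chosen with earlier results of these data known. The number of arrays limits the precision. Alternatives covered detection flag, outlier spots, background correction, normalisation, scale, filter, variance prior and replicates left out.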

Additional observations from a re-analysis of the deposited data

Results flagged for a closer look

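For 5 of the 78 probes, 1 array lay apart from the other 3 by a gap, as a share of the whole range of the 4 values, above the 95% critical value of Dixon's test. Chance gives about 1 in 20, or 3.9 of 78. The Eif3h probe at 1022 was lowest on replicate 1, with a gap of 0.873 of its range, although its whole range was small (SD 0.041). The Eif3k probe at 409, on 1 spot, was lowest on replicate 3, with a gap of 0.856. The Eif3k probe at 421, on 10 spots, shares 48 bases with it and was lowest on replicate 4. The Eif4enif1 probe was lowest on replicate 3, with a gap of 0.870 at an SD of 0.031. The Eif5 probe at 2538 was highest on replicate 3, with a gap of 0.871. The Eif5a2 probe at 290, detected on no array, was highest on replicate 4, with a gap of 0.850.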

How the results depend on the processing

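The count of 49 detected genes was the same with the weaker detection flag, with 2 arrays required, with outlier spots kept and without each replicate. It was 48 when every probe of a gene had to be detected. Since 0 factor probes were detected on 1 to 3 arrays, requiring 2 arrays or leaving out a replicate could not change the count. No factor probe passed the variance test except when dim probes were kept, where 1 did (Eif1ax, adjusted p of 0.0021 by limma, with 1121 probes passing over the array). The lowest adjusted p of a factor otherwise lay between 0.066 and 0.92. Over the whole array 0 probes passed without the robust step, without the trend or without replicate 3, and 1 passed on the spike-in scale. In these settings the lack of a factor probe says nothing about the factors. The median SD was 0.49 on the spike-in scale (0.49 for all detected probes) and 0.064 to 0.090 leaving out 1 replicate, with 0.064 without replicate 4 (0.11 for all detected probes). On the spike-in scale the mean deviations on replicates 1 to 4 were 0.38, 0.42, -0.20 and -0.60, near those of all detected probes. With dim probes kept they were -0.041, 0.0062 and 0.028 on replicates 1, 2 and 4. Named levels moved by more than their SD in 36 of 51 genes with normexp and in 16 with the mean over probes. They moved in none with quantile normalisation or outlier spots kept. With the spike-ins or the median of detected probes as scale every level shifts by the same amount, and all 51 moved. Leaving out 1 of 4 arrays cannot move a mean by more than its SD, and none moved. The counts for scale and for replicates left out were thus fixed in advance and say nothing about stability. No paired analysis was possible because the samples form 1 group. With 4 arrays and often 1 spot per probe, small differences between replicates could not be resolved, and a factor not well above background may still be expressed below that limit.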

Other observations

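The array also holds 8 probes that its descriptions call initiation factors under other names, which the rule did not take. The probe for Eif4g1, the main eIF4G scaffold, gave 3.28, 3.41, 3.38 and 3.39 on replicates 1 to 4, a mean of 3.36 ± 0.056 (SD, n = 4). Eif4e1b, a cap-binding paralogue known from oocytes, was detected on 0 arrays by both of its probes. The other 5 probes are described as like eIF5A, eIF4B, eIF5, eIF3H and eIF4G1 and carry locus names, and each was detected on all 4 arrays. The probe described as like eIF5 gave -1.84, -1.70, -1.71 and -2.04, lowest on replicate 4.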
